A study of Mus musculus with 15 samples.

Results

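The immediate early genes Fos, Fosb, Fosl1, Jun, Junb, Egr1, Egr2, Ier2, Ier3 and Atf3 were followed through the differentiation of mouse embryonic stem cells (ESCs) into primordial germ cell-like cells (PGCLCs). They were a set of 10 genes picked by name, because Fos and Egr1 varied strongly in these samples with a peak in epiblast-like cells (EpiLCs). They are 10 of 55536 genes in the count table and 10 of the 18090 genes kept for testing after a filter on low counts, which Egr2 passed only through the EpiLC samples. Because Fos and Egr1 chose the set, their levels are described here without a test, and tests are given for the other 8 genes, with Egr2 given by its counts and set apart from the counts of called members.

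RNA-seq was performed on 15 samples, 3 replicates of each of 5 groups. ESCs were cultured in 2i LIF, that is with the MEK inhibitor PD0325901, the GSK3 inhibitor CHIR99021 and the cytokine LIF. EpiLCs were the same cells after 48 h with Activin A and bFGF on fibronectin. PGCLCs were collected on days 2, 4 and 6 of doxycycline treatment of cell aggregates in medium without added cytokines, and Stella-eGFP+ cells were sorted from them by FACS. All groups derived from clonal Stella-eGFP ESCs engineered with doxycycline-inducible Prdm1, Prdm14, Tfap2c and Nanog transgenes, so ESCs and EpiLCs differ from PGCLCs also in transgene induction, aggregation and sorting, and these cannot be told apart. The labels do not say that replicates were separate cultures or differentiations, so p-values measure the spread between these samples, which may be technical.

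Immediate early genes are transcribed within minutes of a stimulus such as a growth factor or a stress, from promoters that are already accessible, by factors such as SRF with its ETS partners and CREB, many of which are switched on by the MEK-ERK cascade. Their mRNAs are short-lived, so their level follows recent signalling and also the handling of cells before lysis. Several members encode bZIP transcription factors: FOS and JUN family proteins pair to form AP-1, and ATF3 is a stress-induced relative. EGR1 and EGR2 are zinc finger transcription factors, IER2 is a nuclear regulator of transcription, and IER3 acts in cell survival and stress signalling.

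The set was compact in the genome. The members spanned a median of 4698.5 bp with 2.5 exon blocks, against 24042 bp and 10 blocks over 14775 tested protein-coding genes. In mm10, Fos lay at chr12:85473890-85477273 on the plus strand with 4 exon blocks, and Fosb at chr7:19302696-19310051 on the minus strand. Jun was a gene of 1 exon at chr4:95049034-95052222 on the minus strand, and Junb lay at chr8:84974484-84978718 on the minus strand. Exons of Junb overlap those of Prdx2, exons of Jun overlap the antisense gene Junos, and exons of Fosl1 overlap Ccdc85b, in each case on the opposite strand. Whether the counting used strand is not given in the sources used here, so the reads of these pairs may not have been fully separated. Over all samples Junb held 5813 counts beside 104914 for Prdx2, Fosl1 held 122 beside 6952 for Ccdc85b, and Jun held 11174 beside 235 for Junos.

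Promoter windows from RefSeq (GRCm38.p6) were matched for 7 of the 10 members, namely Fos, Fosb, Jun, Junb, Egr2, Ier3 and Atf3. The bases from 160 to 11 before the start site are printed for 3 genes that peaked in EpiLCs (Fos, Fosb and Jun) and for Junb, an AP-1 partner that did not. Capitals mark matches to the searched motifs, on either strand, in lower-case flanking sequence. They are TGACG, a half-site of the cAMP response element, TGACNTCA, the octamer that CREB and AP-1 proteins can bind, TATAAA, the EGR site GCGNGGGCG and the MEF2 box. The lines run 5′ to 3′ along each gene, for Fos chr12:85473730-85473879 (plus), Fosb chr7:19310056-19310205 (minus), Jun chr4:95052233-95052382 (minus) and Junb chr8:84978759-84978908 (minus).
Fos: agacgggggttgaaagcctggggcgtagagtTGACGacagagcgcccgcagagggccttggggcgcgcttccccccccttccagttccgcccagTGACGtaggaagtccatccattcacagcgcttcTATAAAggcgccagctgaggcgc
Fosb: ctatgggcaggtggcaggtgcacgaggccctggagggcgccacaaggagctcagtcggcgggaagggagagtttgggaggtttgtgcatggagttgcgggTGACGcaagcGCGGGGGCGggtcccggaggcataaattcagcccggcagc
Jun: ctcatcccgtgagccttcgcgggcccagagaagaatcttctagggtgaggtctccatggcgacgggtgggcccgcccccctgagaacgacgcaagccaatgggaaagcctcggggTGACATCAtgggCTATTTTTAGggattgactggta
Junb: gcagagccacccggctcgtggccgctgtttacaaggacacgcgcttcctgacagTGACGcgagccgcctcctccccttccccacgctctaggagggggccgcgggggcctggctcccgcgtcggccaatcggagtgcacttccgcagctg

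TGACG occurred at -129 and -66 in Fos, at -60 in Fosb and at -106 in Junb, counted from the first base before the start as -1. It was present in 20.8% of 32817 promoter windows of 300 bases. Fos also held TATAAA at -33 (13.6% of windows) and Fosb an EGR site at -50 (5.56%). Junb held TATAAA too, from 0 to 5 at the start itself, which lies outside the printed bases. Jun held TGACNTCA at -45 (8.84%) and a MEF2 box at -33 (0.558%). Among the members not printed, Atf3 also held a MEF2 box, at -22, and windows of Egr2 and Atf3 held TGACG. TGACNTCA contains TGACG only where its N is G, which was not so in Jun. The AP-1 heptamer TGANTCA (7.81% of windows) and the ETS core CCGGAAGT (3.89%) were searched too and had no match in any of the 7 members. A CArG box, the element read by SRF, stood at -72 in an Egr2 window (1.63% of windows) and in no window of the other members matched. The windows ran from 250 bases before the start to 50 after it. Elements farther out were not searched, so a missing match does not mean that a gene lacks the element. A match here is a run of letters and was not tested as a binding site.

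Libraries held 22555021 to 42725681 counts. Day 6 replicate 1 had counts for 18061 genes, against 21103 to 24343 in every other library. Levels are given as CPM, counts scaled to library size, after TMM normalization, which adjusts that scale for differences in RNA composition. A gene is said to be called where edgeR's quasi-likelihood test gave an adjusted p below 0.05 (Benjamini-Hochberg over all 18090 genes) and its log2 fold change exceeded 1 in either direction. The labels of ESCs and EpiLCs matched their markers. All 5 EpiLC markers, among them Fgf5, were called higher in EpiLCs than ESCs, and 6 of 7 naive ESC markers lower. Of 8 PGCLC markers, 7 were called higher on day 2 than in ESCs and 5 higher than in EpiLCs. That list holds the induced Prdm1, Prdm14, Tfap2c and Nanog, and Dppa3 (Stella), whose reporter was used for sorting. The design favoured rises of these genes, so they are no independent check of the labels.

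Fos, which encodes the founding FOS subunit of AP-1, was near 1 CPM in every group except EpiLCs. It measured 1.28, 1.10 and 0.536 CPM in the 3 ESC samples, and 107, 147 and 134 CPM in the EpiLC samples. On day 2 it measured 1.59, 1.76 and 1.11 CPM, on day 4 1.09, 0.994 and 1.63 CPM, and on day 6 2.34, 1.23 and 1.36 CPM. All EpiLC samples stood above every other sample, and the 3 PGCLC days overlapped one another. In such bulk samples, more cells with a transcript and more transcript per cell cannot be told apart. The EpiLC mean of 129 ± 20.3 CPM (SD, n = 3) was 133-fold the ESC mean of 0.970 ± 0.386, and the day 2 mean of 1.49 ± 0.336 was 1.15% of the EpiLC mean.

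Egr1, whose protein binds GC-rich sites and is an early output of ERK signalling, peaked at the same stage but fell more gradually. It measured 0.292, 0.482 and 0.268 CPM in ESCs and 223, 287 and 277 CPM in EpiLCs. The PGCLC samples measured 22.2, 21.5 and 11.8 CPM on day 2, 4.00, 5.03 and 4.61 CPM on day 4, and 1.97, 4.76 and 2.41 CPM on day 6. Day 2 samples stood between those of EpiLCs and day 4 without overlap, while days 4 and 6 overlapped. The EpiLC mean of 262 ± 34.2 CPM was 754-fold the ESC mean of 0.347, and the day 2 mean of 18.5 ± 5.81 was 7.07% of the EpiLC mean. On day 2, Egr1 was still 53.3-fold its ESC mean, whereas Fos was 1.53-fold its own.

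**Figure D1:**
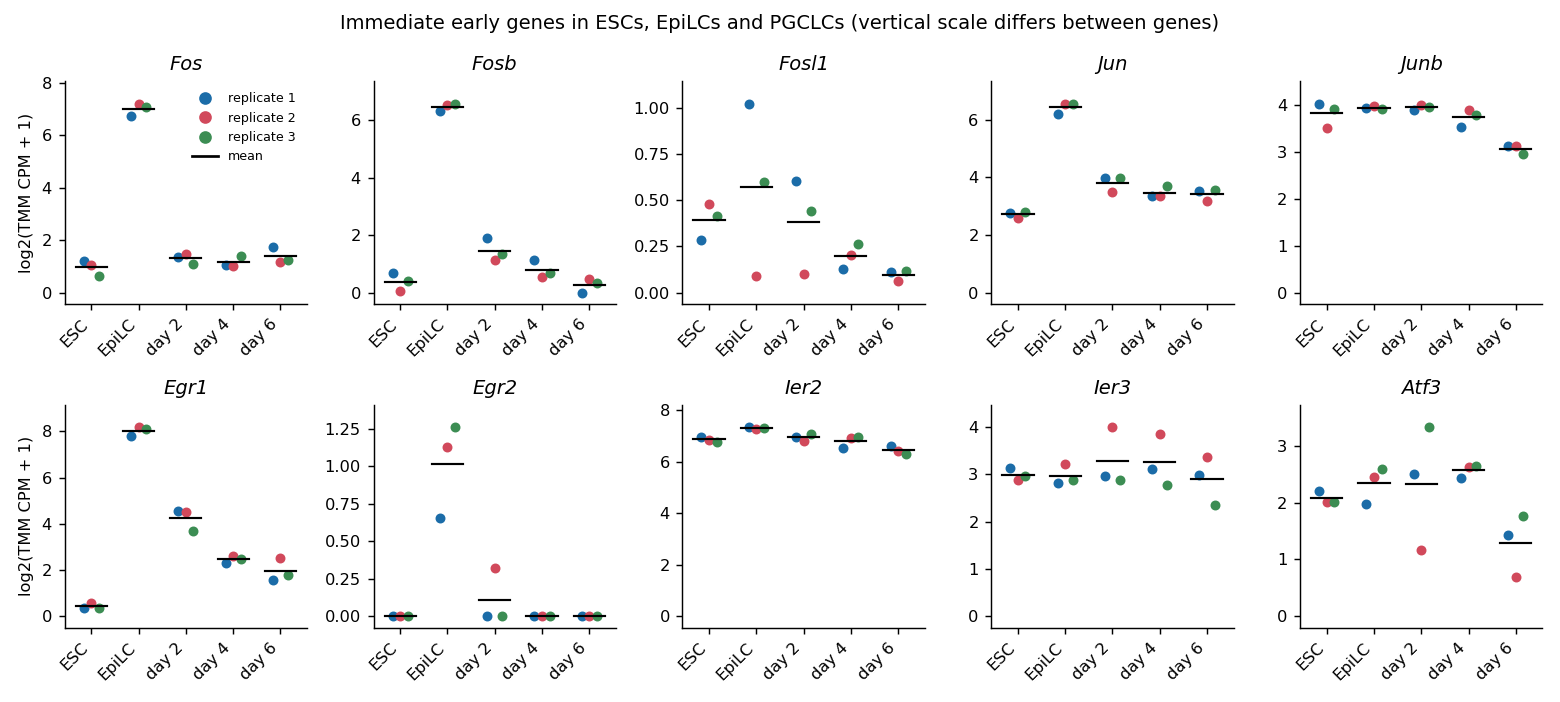
Level of each of the 10 genes in every sample, as log2(TMM CPM + 1) on vertical scales that differ between genes. Points are samples coloured by replicate and bars are group means (n = 3). Fos, Fosb, Jun, Egr1, Egr2 and Ier2 were higher in all 3 EpiLC samples than in the 12 other samples.

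Of the 7 tested genes other than Egr2, Fosb and Jun were called higher in EpiLCs than in ESCs and none was called lower, where 26.2% of all tested genes were called in this comparison and 14.4% higher. Fosb, a FOS paralogue, measured 0.584, 0.0438 and 0.335 CPM in ESCs and 79.4, 91.0 and 94.3 CPM in EpiLCs. The groups were far apart, with 1 to 16 counts per ESC library. The log2 fold change was 8.02 (SE 0.45, adjusted p = 3.24e-11, edgeR). With 1 sample left out it ranged from 7.58, without ESC replicate 2, to 8.70, without ESC replicate 1.

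Jun, the main dimer partner of FOS proteins, measured 5.80, 5.00 and 5.96 CPM in ESCs and 72.5, 92.8 and 93.5 CPM in EpiLCs. Unlike Fos it was already well counted before the EpiLC stage, at 114 to 178 counts per ESC library. The difference was 3.94 on the log2 scale (SE 0.18, adjusted p = 1.49e-12, edgeR). Its antisense neighbour Junos stood at 0.264 CPM in EpiLCs.

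Egr2, an EGR1 paralogue, had no counts in any ESC, day 4 or day 6 library. EpiLC libraries held 15, 36 and 38 counts, and 1 of the 3 day 2 libraries held 7 while the others held none. Taking 3 counts per library as a floor, EpiLCs were at least 9.23-fold higher than ESCs. The gene was kept for testing only because of its EpiLC counts, so a difference from EpiLCs was favoured by the filter and no p-value is given for it. edgeR called it in EpiLCs against ESCs and in day 2 against EpiLCs, and DESeq2 in neither.

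The remaining members differed by less than the cutoff at this step. Ier2 measured 125, 113 and 109 CPM in ESCs and 161, 155 and 158 CPM in EpiLCs. Its EpiLC samples lay above all others, but its log2 fold change of 0.44 (95% interval 0.22 to 0.67, adjusted p = 0.00203, edgeR) was below the cutoff. Junb measured 13.4 ± 2.57 CPM in ESCs and 14.5 ± 0.336 in EpiLCs, a log2 difference of 0.11 with a 95% interval of -0.20 to 0.42. Ier3 differed by -0.02 (-0.73 to 0.70) and Atf3 by 0.36 (-0.64 to 1.37) on the log2 scale. Fosl1, the FRA1 subunit, held 2 to 27 counts in every library of both groups, so its interval of -0.93 to 2.43 leaves a wide range of differences.

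Across all groups, every EpiLC sample exceeded the 12 other samples for 6 members, Fos, Fosb, Jun, Egr1, Egr2 and Ier2. This pattern was found in 14.2% of tested genes. A mean of at least 10 CPM in EpiLCs that was also at least 10 times every other group mean was found for Fos, Fosb and Egr1 and in 0.254% of tested genes. The counts include Fos and Egr1, which were chosen for their peak, and the first also Egr2, which passed the filter only through EpiLCs. Day 2 had the highest mean for Junb, Ier3 and Atf3, as it had for 15.3% of tested genes. For none of these was it a clear peak. Junb averaged 14.5 CPM both on day 2 and in EpiLCs, and the day 2 samples of all 3 genes overlapped those of ESCs and EpiLCs.

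EpiLC libraries also had more fibroblast marker RNA. The 9 listed markers summed to 29.7 to 30.5 CPM in EpiLCs, 9.64 to 11.4 in ESCs and 3.77 to 5.68 in PGCLCs, and 5 of 7 tested were called higher in EpiLCs than in ESCs (14.4% of all genes were), among them Dcn and Thy1. In ESCs, Col3a1, Postn and Dcn were at 0 in every library, and in EpiLCs Lum was. Of 11 heat shock genes, none was called in EpiLCs against ESCs with edgeR, although 9 had an unadjusted p under 0.05 and 8 an adjusted one. Of the 9, 2 were lower in EpiLCs. The list median was 0.36 on the log2 scale, and summed levels were 21135 to 22350 CPM against 17111 to 17581. Most of the EpiLC sum came from Hsp90ab1, Hsp90aa1 and Hspa8, with means of 7610, 6377 and 4672 CPM. Mean Hspb1 went from 165 CPM in ESCs to 92.0 in EpiLCs, and Hspa1b from 9.53 to 5.39. Dnajb1 (110 and 104) and Hspa1a (2.06 and 2.00) were also slightly lower in EpiLCs, while the other listed genes had higher means there. The part of the fibroblast and heat shock genes in the EpiLC peak was not tested. The sources used here do not describe how ESCs and EpiLCs were handled before lysis.

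Between EpiLCs and day 2 PGCLCs, Fosb and Jun were called lower and none of the 7 tested genes other than Egr2 higher, with 25.4% of all genes called (11% higher and 14.4% lower). Fosb measured 2.73, 1.18 and 1.56 CPM on day 2, and fell by 5.58 on the log2 scale (SE 0.36, adjusted p = 2.92e-10, edgeR). Jun measured 14.9, 10.3 and 14.8 CPM, and fell by 2.69 (SE 0.16, adjusted p = 1.16e-10, edgeR). Neither gene had a day 2 sample that overlapped the EpiLC samples. Ier2 fell by 0.37 on the log2 scale (adjusted p = 0.00813, edgeR), below the cutoff, while Junb differed by 0.01 (95% interval -0.30 to 0.31).

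Day 2 PGCLCs had not returned to the ESC level for either gene. Fosb was called higher on day 2 than in ESCs by 2.44 on the log2 scale (SE 0.53, adjusted p = 0.000874, edgeR) and Jun by 1.25 (SE 0.17, adjusted p = 5.49e-06, edgeR). Without ESC replicate 1, which held the most Fosb counts of the ESC libraries, the Fosb difference was 3.13. Without ESC replicate 2, which held the fewest, it was 2.01, and leaving out any other sample gave a value between these. Fosb and Jun were the only 2 called of the 7 genes with a fold in this comparison, where 24.3% of all genes were called and 11.7% higher. Egr2 was given no fold because both groups averaged at most 3 counts. The day 2 and ESC samples of Junb, Ier2, Ier3, Atf3 and Fosl1 overlapped.

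**Figure D2:**
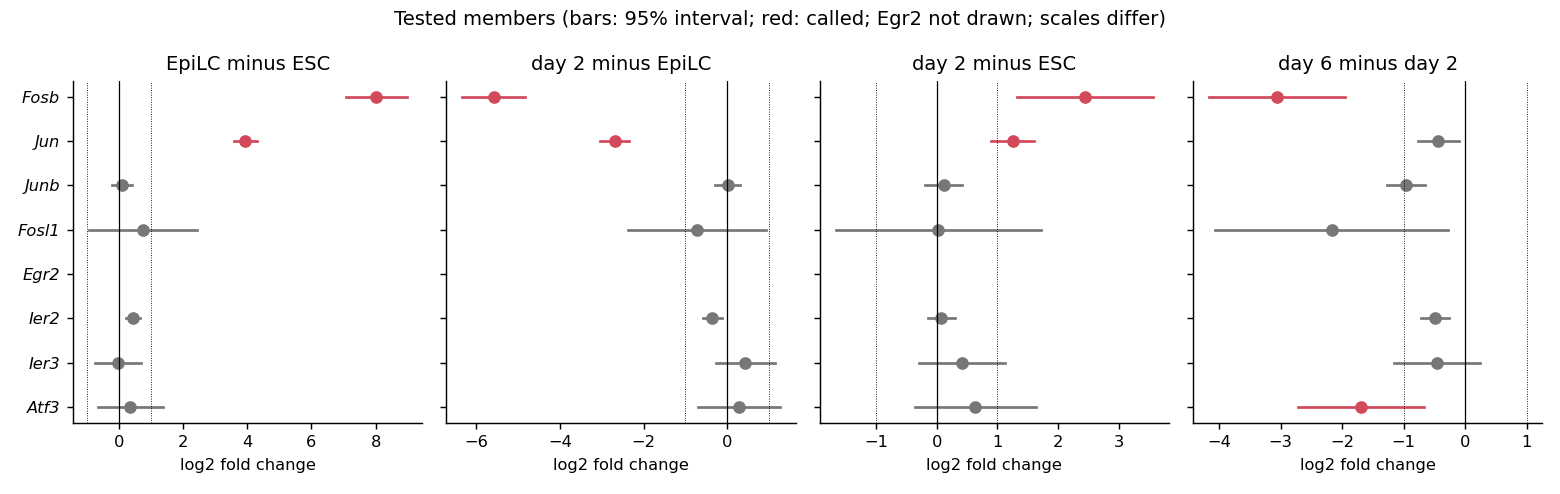
Log2 fold changes of the tested members in 4 comparisons, with 95% intervals from the quasi-likelihood fit, red where called and grey where not. Dotted lines mark an absolute log2 fold change of 1, horizontal scales differ, and Egr2 is not drawn because its fitted fold depends on groups at 0. Fosb and Jun were higher in EpiLCs than ESCs and lower on day 2 than in EpiLCs, and Fosb and Atf3 were lower on day 6 than day 2.

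The AP-1 mRNA pool changed in composition as well as in amount. Per kilobase of exon, so that genes can be compared, the 7 FOS and JUN family mRNAs (Fos, Fosb, Fosl1, Fosl2, Jun, Junb and Jund) summed to 8.60 ± 1.19 CPM per kb in ESCs, 103 ± 13.1 in EpiLCs and 11.9 ± 0.748 on day 2. In ESCs, Junb made up 67.2% ± 4.09 of this sum and FOS family mRNAs 9.42% ± 1.69. In EpiLCs, FOS family mRNAs made up 67.4% ± 0.911 and Junb 6.16% ± 0.807, although the level of Junb itself was 5.81 CPM per kb in ESCs and 6.29 in EpiLCs.

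By day 2 the FOS family share was 10.1% ± 1.95, followed by 8.68% ± 1.57 on day 4 and 11.1% ± 1.77 on day 6. Each overlapped the ESC shares of 7.98% to 11.3%, while the day 4 shares (6.91% to 9.91%) lay just below those of day 6 (9.94% to 13.1%). Within the JUN family, Jun made up 20.5% ± 1.38 of the pool in ESCs and 41.8% ± 4.10 on day 6, with no overlap, while the Junb share was 43.8% ± 4.93 on day 6. Jund, usually a broadly expressed subunit, was counted at only 0.159 to 0.266 CPM per kb in all groups, with 5 to 17 counts per library. Whether its reads were fully counted was not examined, so the shares hold for the mRNAs as counted. Shares include Fos and are given as a description, and the level of Junb rests on reads near Prdx2, which fell from 286 ± 9.74 CPM in ESCs to 165 ± 11.6 CPM on day 6.

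**Figure D3:**
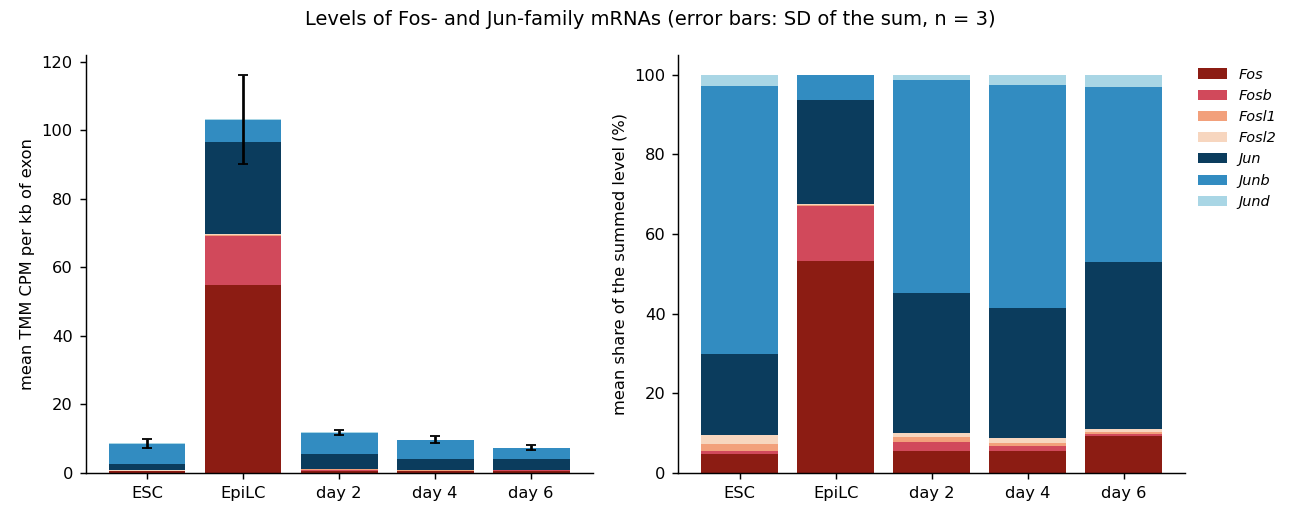
FOS and JUN family mRNAs per group, as stacked group means in TMM CPM per kb of exon on the left (error bars are the SD of the sum, n = 3) and as mean shares of the sum in percent on the right. The sum stood at 103 CPM per kb in EpiLCs and between 7.40 and 11.9 in the other groups, and Fos and Fosb took most of the EpiLC bar.

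Over the PGCLC days, Fosb and Atf3 were the members called. Between days 2 and 4, none of 7 was called with edgeR or DESeq2 and 2 had an unadjusted p under 0.05 in edgeR, with 2.94% of all genes called (2.56% higher and 0.376% lower). Fosb came nearest, at 1.21, 0.452 and 0.601 CPM on day 4 and a log2 difference of -1.28 (95% interval -2.20 to -0.37, adjusted p = 0.0637, edgeR), and it was called without day 2 replicate 2 (adjusted p = 0.0424), day 4 replicate 1 (0.0254) or day 6 replicate 1 (0.0282). Between days 2 and 6, Fosb and Atf3 were called lower, with 13.6% of all genes called and 2.75% lower. Fosb was at 0, 0.374 and 0.255 CPM on day 6, below every day 2 sample, and fell by 3.06 on the log2 scale (SE 0.53, adjusted p = 0.000186, edgeR). With 1 sample left out, its log2 difference ranged from -3.86, without day 6 replicate 2, to -2.50. The 0 came from day 6 replicate 1, the library with the fewest genes counted.

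Junb, Ier2 and Jun also drifted down between these days, each by less than the cutoff. Junb measured 13.9, 15.0 and 14.7 CPM on day 2 and 7.75, 7.71 and 6.83 CPM on day 6, without overlap, and fell by 0.97 on the log2 scale (adjusted p = 5.92e-05, edgeR). Ier2 fell by 0.50 (adjusted p = 0.00152, edgeR) and Jun by 0.43 (adjusted p = 0.0396, edgeR). Between days 4 and 6, Junb fell by 0.75 (adjusted p = 0.003, edgeR).

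At the end point, day 6 PGCLCs and ESCs differed by less than the cutoff in the members that passed the test. None of the 7 members with a fold was called with edgeR or DESeq2, where edgeR called 26.2% of all genes (15.8% higher and 10.3% lower). Of the 7, 5 had an unadjusted p under 0.05 and 3 an adjusted one. Jun was higher by 0.82 on the log2 scale (adjusted p = 0.000481, edgeR), with day 6 samples at 10.7, 8.17 and 10.9 CPM, all above the ESC samples. Junb was lower by 0.85 (adjusted p = 9.23e-05, edgeR) and Ier2 by 0.42 (adjusted p = 0.00331, edgeR), also without overlap. Fosl1 and Atf3 had larger differences that did not pass the test, at -2.14 (adjusted p = 0.0567, edgeR) and -1.06 (adjusted p = 0.0817, edgeR). For both, every day 6 sample was below the ESC samples, although Fosl1 held only 2 to 3 counts per day 6 library. Egr1, not tested, was at 3.05 ± 1.50 CPM on day 6, 8.77-fold its ESC mean, with every day 6 sample above the ESC samples.

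Atf3 and Ier3 varied widely among PGCLC replicates, and on days 2 and 6 the sample that was lowest for Atf3 was highest for Ier3. Atf3 measured 3.61, 3.02 and 3.05 CPM in ESCs and 2.95, 4.47 and 5.03 in EpiLCs. On day 2 it measured 4.69, 1.25 and 9.03 CPM, on day 4 4.40, 5.21 and 5.27, and on day 6 1.68, 0.617 and 2.41. The day 6 samples lay below all day 4 samples but overlapped those of day 2.

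edgeR called Atf3 lower on day 6 than on day 4 by 1.68 on the log2 scale (SE 0.49, adjusted p = 0.0305), the only one of 7 members called in a comparison with 3.08% of genes called (2.29% higher and 0.785% lower). This call was lost without day 4 replicate 2 (adjusted p = 0.0712), day 4 replicate 3 (0.0681), day 6 replicate 1 (0.0692) or day 6 replicate 2 (0.0975). Against day 2 the difference was -1.69 (SE 0.49, adjusted p = 0.011, edgeR), and without day 2 replicate 3 it was -0.95 (adjusted p = 0.134, edgeR). With these 2 groups alone in the fit the adjusted p was 0.0605.

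Ier3 measured 6.86, 14.9 and 6.36 CPM on day 2, 7.70, 13.5 and 5.90 on day 4, and 6.96, 9.27 and 4.08 on day 6. Replicate 2 was the highest on each of the 3 days, and no comparison of Ier3 passed the test. The 10 ATF4 stress response genes, a list around a bZIP factor that acts upstream of Atf3, also varied on day 2, with summed levels of 2363, 1483 and 2922 CPM in replicates 1, 2 and 3. Replicates stood in the same order for this sum and for Atf3 in EpiLCs and on days 2 and 6, and in different orders in ESCs and on day 4, where the sums were 1825, 1749 and 2020 CPM. In EpiLCs the 10 genes summed to 679 to 754 CPM and in ESCs to 1479 to 1512 CPM. Asns alone averaged 149 CPM in EpiLCs, 976 in ESCs and 1363 on day 2, most of the ESC and day 2 sums. In EpiLCs against ESCs, 1 of the 10 was called higher (Ddit4) and 2 lower (Asns and Trib3), against 14.4% and 11.9% of all genes. Of the 10, 5 were called higher on day 2 than in ESCs, among them Chac1, Vldlr and Trib3, and none lower, against 11.7% and 12.7% of all genes. The part of this list in the Atf3 values was not tested.

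**Figure D4:**
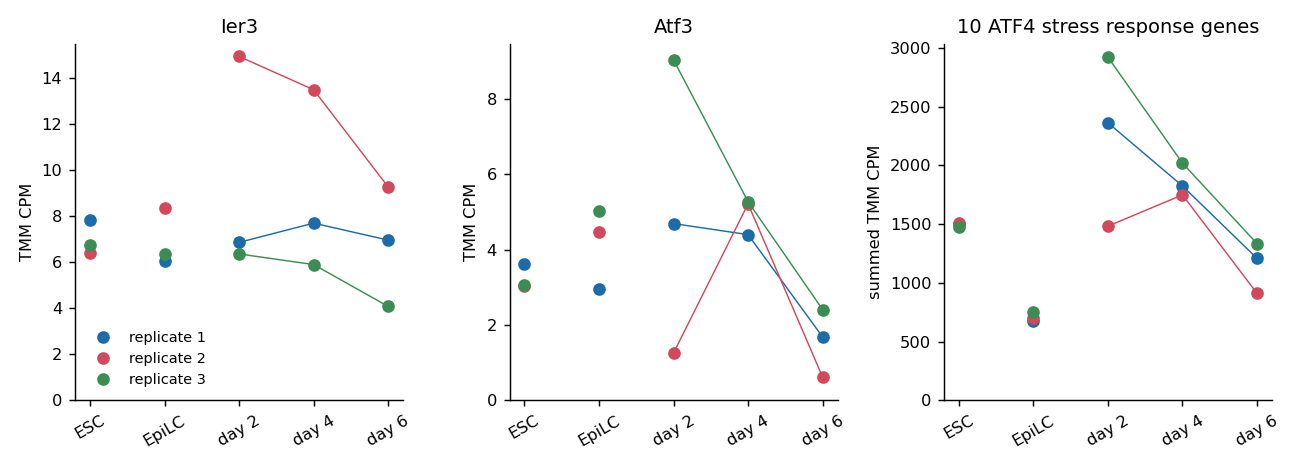
Ier3 and Atf3 in TMM CPM and the summed TMM CPM of 10 ATF4 stress response genes, in every sample by replicate. Lines join samples with the same replicate number over the PGCLC days and do not stand for repeated measurement of 1 culture. On day 2, replicate 2 was highest for Ier3 and lowest for Atf3 and for the ATF4 genes.

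Across the 15 samples, the other members resembled Fos to different degrees. Pearson's r of log2(CPM + 1) with Fos was 0.975 for Fosb, 0.963 for Jun and 0.894 for Egr1, which placed them 19th, 39th and 249th among 11391 genes compared. It was 0.710 for Ier2, 0.311 for Junb, 0.146 for Atf3 and -0.126 for Ier3. These values rest on group differences that all samples of a group share and are a description. Within groups, after subtracting group means, r over the 45 pairs of members ran from -0.75 for Fosl1 and Egr2, both with few counts, to 0.80 for Jun and Atf3. Fos and Fosb had -0.13, and Ier3 and Atf3 -0.66.

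The 5 genes most like Fos over the 15 samples were Fgf5, Syt13, Tmem54, Mmp25 and Kif1a, with r from 0.985 to 0.993. Fgf5, a growth factor that marks the formative epiblast, had a mean of 0.0122 CPM in ESCs, 58.5 in EpiLCs and 0.895 on day 2. The 5 most like Egr1 were Bend3, Myef2, Atad1, Slc38a2 and Myh6, with r from 0.981 to 0.990. Slc38a2, an amino acid transporter, had means of 165 CPM in ESCs, 1129 in EpiLCs and 349 on day 2. No gene stood in both lists.

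Genes related to the members by class were compared over the same samples. Of 11 other AP-1 subunits and bZIP partners, 3 were called higher in EpiLCs than ESCs and 3 lower, against 14.4% and 11.9% of all genes, with a list median of -0.11 on the log2 scale against -0.01 over all tested genes. The small MAF proteins Maff, at 1.62 (adjusted p = 0.000431, edgeR), and Mafk, at 1.41 (adjusted p = 1.35e-08, edgeR), rose, and Atf7 and Jdp2, a repressor of AP-1, fell. Of 13 other immediate early transcription factors tested, 5 were higher and 2 lower, against the same shares. Klf6 rose by 1.14 (adjusted p = 1.46e-08, edgeR) and Klf4, which also supports naive pluripotency, was lower by 3.41 on the log2 scale, from 173 CPM to 16.2 CPM.

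Immediate early genes with functions other than transcription had 13 of 28 called higher in EpiLCs than ESCs and 2 lower, with a list median of 0.89 on the log2 scale, where 14.4% of all genes were called higher and 11.9% lower. Gadd45g, a growth arrest gene, rose from 0.431 to 71.0 CPM (log2 fold change 7.30, adjusted p = 3.69e-13, edgeR) and stood at 2.77 CPM on day 2. Gadd45a rose from 7.02 to 78.5 CPM but stayed at 112 CPM on day 2, and its paralogue Gadd45b fell from 37.5 to 7.79 CPM. Between EpiLCs and day 2, 3 of the 28 were called higher and 8 lower, against 11% and 14.4% of all genes.

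The list of ERK feedback genes held Dusp4, Dusp6, Spry1, Spry2, Spry4, Spred1 and Spred2, which dampen signalling in this pathway. It also held Etv1, Etv4, Etv5 and Phlda3, which are not feedback inhibitors of ERK. Of these 11 genes, 4 were called higher in EpiLCs than ESCs and none lower, against 14.4% and 11.9% of all genes. Dusp6 rose from 3.88 to 69.6 CPM (log2 fold change 4.15, adjusted p = 2.17e-15, edgeR) and Dusp4 from 2.61 to 63.0 CPM (4.56, adjusted p = 1.84e-13, edgeR). Unlike Fos and Fosb, both were high on day 2, at 77.3 CPM for Dusp6 and 186 CPM for Dusp4. Etv1 rose from 7.28 to 25.3 CPM in EpiLCs but was called lower on day 2, at 7.57 CPM. Between EpiLCs and day 2, 1 of the 11 was called higher (Dusp4) and 1 lower (Etv1), against 11% and 14.4% of all genes. Dusp4 and Dusp6 were also called higher in day 6 PGCLCs than ESCs. The MEK inhibitor was part of the ESC medium, so its withdrawal and the change of cell state cannot be told apart in any of these comparisons with ESCs.

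Among 14 regulators of immediate early transcription and mRNA decay, 2 were called higher in EpiLCs than ESCs and 3 lower, again against 14.4% and 11.9% of all genes. Zfp36, whose protein destabilises AU-rich mRNAs, rose from 3.28 to 16.5 CPM and stood at 15.8 CPM on day 2. Its relative Zfp36l2 rose from 45.6 to 128 CPM and Zfp36l1 fell from 86.8 to 32.7 CPM. Nab2, a corepressor of EGR proteins, fell by 2.81 on the log2 scale (adjusted p = 1.3e-08, edgeR) from 15.7 to 2.22 CPM in EpiLCs, where Egr1 was at its highest, and rose on day 2 to 7.69 CPM. Srf, at 29.6 CPM in ESCs and 48.2 CPM in EpiLCs, changed by less than the cutoff.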

How the data were processed

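RNA-seq was available for 15 samples, grouped by their labels. The authors prepared stranded libraries and deposited unnormalized counts for each Ensembl gene. Reads were aligned to mm10 and the submitters' processing notes name Trim Galore, FastQC and STAR, while the counting tool and its strand setting are not given in the sources used here. Depth per sample is given as total counts. Symbols, coordinates and exon lengths were taken from GENCODE M21, which held all 55536 gene IDs. Exon length covers all annotated exons of a gene.

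Counts were tested with edgeR 4.0.16 in R 4.3.3 (TMM, filterByExpr at its default of 10 counts, then a quasi-likelihood model of the 5 groups over all 15 samples, Benjamini-Hochberg adjustment over 18090 genes). The 7 comparisons between groups are those of the report, and 95% intervals used the t distribution with the degrees of freedom of the fit. A group at no more than 3 counts in every library was set to that floor for a fold, and no fold was given where both groups averaged at most 3 counts. Correlations used log2(CPM + 1). The test was tried on simulated counts with known changes.

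The members and gene lists were chosen with earlier results of these data known. Named genes were all 10 members, up to 3 called genes in each direction per other list with the largest fold change and a mean of at least 100 counts in the higher group, and the 5 genes most correlated with Fos and with Egr1 among genes with a mean of at least 100 counts. Jund, Srf, Dusp4 and Dusp6 on days other than that of a call, and the genes overlapping a member were named outside this rule after their values were seen. The heat shock genes named for ESCs and EpiLCs, and Col3a1, Postn, Lum and Pdgfrb, were also named outside it.

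Alternatives were DESeq2 1.42.0, which the study's methods name, its size factors in edgeR, no filter, no fold change cutoff, only the groups compared, the replicate number as a block, and each sample left out. Replicate numbers come from the labels. Deviations of same-numbered samples from their group means correlated above 0.1 in all 3 pairs for days 2 and 4 only (0.255 to 0.299), so the numbers were taken to pair those days. A block in the PGCLC samples alone was chosen after seeing the data. Tests for Fos and Egr1, are not reported.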

Additional observations from a re-analysis of the deposited data

How the results depend on the processing

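The calls of Fosb and Jun among ESCs, EpiLCs and day 2, and of Fosb between days 2 and 6, had the same direction and stayed called under every alternative tried. DESeq2 called the same members in EpiLCs against ESCs and in day 2 against EpiLCs, other than Egr2. Without a fold change cutoff, 3 members passed in day 6 against ESCs, 3 in day 6 against day 4 and 5 in day 6 against day 2. Without the filter on low counts, 1 was called in day 6 against ESCs (Atf3), 1 in day 4 against day 2 (Fosb) and 2 in day 6 against day 4 (Fosb and Atf3). That fit pooled the spread over all genes, with 323200 degrees of freedom against 18.4 with the filter, so its p-values do not reflect the spread of each gene. With only the groups compared in the fit, 1 was called in day 6 against day 2. With the replicate block, 2 were called in day 6 against ESCs (Fosl1 and Atf3), groups that the replicate numbers do not pair. For days 2 and 4, which they do, the block left 0 called, and it changed no other count of called members.

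With 1 sample left out, the number called ranged from 0 to 2 in day 6 against ESCs, from 0 to 1 in day 4 against day 2, from 0 to 1 in day 6 against day 4, and from 1 to 3 in day 6 against day 2. In day 6 against ESCs it was 2 without day 2 replicate 2, and 1 without EpiLC replicate 2, day 2 replicate 3 or day 6 replicate 3. In day 4 against day 2, Fosb was called without day 2 replicate 2, day 4 replicate 1 or day 6 replicate 1. Of 51 log2 fold changes of members, 18 changed sign under some setting, and all 18 had a 95% interval that included 0. Among those given above, Ier3 in EpiLCs against ESCs was 0.017 with DESeq2 and 0.018 with its size factors, and Junb in day 2 against EpiLCs was -0.042 and -0.043. With 1 sample left out, EpiLCs against ESCs ranged from -0.12 to 1.29 for Fosl1, from -0.036 to 0.22 for Junb and from -0.17 to 0.084 for Ier3, and Junb in day 2 against EpiLCs from -0.011 to 0.040. With log2(CPM + 4), 3 of the 5 genes most like Egr1 were the same. Depth limits Egr2 and Fosl1, with at most 38 counts in any library.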
